A study of Mus musculus with 18 samples.

Results

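The genes described here are 31 mouse genes of fatty acid oxidation and ketone body metabolism, chosen by name from the 43346 genes of the tumor count table. They comprise 19 genes of mitochondrial enzymes and carriers, 6 genes of peroxisomal enzymes and 6 genes whose products are found in both organelles or on other membranes. All 31 had enough counts to be tested, among 18318 genes that did. The choice went by gene function, with earlier results of these data known.

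Fatty acids taken up by hepatocytes are joined to coenzyme A, carried into mitochondria as carnitine esters and shortened by repeated cycles of dehydrogenation, hydration, a further dehydrogenation and thiolysis. The electrons pass through electron transfer flavoprotein to the respiratory chain, and in liver much of the acetyl-CoA is turned into ketone bodies for export. Peroxisomes run a related cycle on very long and branched chains, and the nuclear receptor PPAR alpha is known to drive many genes of both routes.

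The tumors were mouse liver nodules raised with myr-AKT, a membrane-bound active AKT, together with 1 of 2 forms of the transcriptional coactivator YAP. YAP-S carries S127A, which removes a serine through which the Hippo kinases hold YAP in the cytoplasm, and YAP-SY carries S127A together with Y357F, which removes a tyrosine as well. Nodules of each model were labelled cholangiocarcinoma (CCA) or mixed, with 3 tumors in each of 4 groups: YAP-S CCA (tumors 3, 4 and 5), YAP-S mixed (2, 7 and 9), YAP-SY CCA (1, 6 and 8) and YAP-SY mixed (3, 5 and 9). All 12 tumors carry myr-AKT and S127A, and no tumor without them or normal liver is part of these groups. Strain, age, promoter and delivery of the transgenes are not given in the labels, and nothing states that tumors of a group came from separate animals, so p-values measure the spread between these samples. SB1 cells, with the genotype label of YAP-S CCA, were sequenced as 3 samples, and SY1 cells are not analysed here.

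Tumor libraries held 30656499 to 130035221 counts and SB1 libraries 25341968 to 30541185. Unless stated otherwise, levels are CPM, the count as a share of its library on the usual fixed total, after TMM scaling, a method that discounts a few very abundant genes. Hepatocyte transcripts were present in every tumor, and Alb, which encodes albumin, lay between 33888 and 114470 CPM. The summed level of 11 hepatocyte markers was 53624 to 69489 CPM in YAP-S CCA and 151125 to 169843 CPM in YAP-SY CCA, while 10 cholangiocyte markers summed to 7547 to 10938 and 2781 to 4224 CPM. The tumors labelled YAP-SY CCA thus had the highest hepatocyte sums and the lowest cholangiocyte sums of the 12. In bulk tumors, fewer cells of a type and less RNA per cell cannot be told apart.

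In CCA, fatty acid oxidation genes were higher with YAP-SY than with YAP-S at nearly every step of the pathway. Of the 31 members, 26 rose, none fell and 5 did not pass the test; 18.3% of all tested genes rose. The median log2 fold change of the members was 0.92, a 1.90-fold difference, against -0.00 over all tested genes. Mitochondrial members rose in 16 of 19 cases with a median of 0.91, peroxisomal members in 4 of 6 with a median of 1.05, and the members of both or other membranes in 6 of 6 with a median of 1.0. For 27 members the 3 YAP-SY tumors all lay above the 3 YAP-S tumors, a separation that 24.3% of all tested genes showed in that direction. Calls rest on the quasi-likelihood test of edgeR, with p-values adjusted by Benjamini-Hochberg over all 18318 genes and a threshold of 0.05. By this test 3358 genes rose and 3813 fell. On library size alone, without TMM, 760 rose and 8064 fell, 17 members passed, and Crat turned from 0.49 to -0.08 on the log2 scale, with the uncalled Acads, Etfb and Acot2 at -0.29, -0.04 and -0.26. That scaling moved the median of all genes to -0.56 and the members' median to 0.37, which left the members 0.93 above the median gene.

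**Figure D1:**
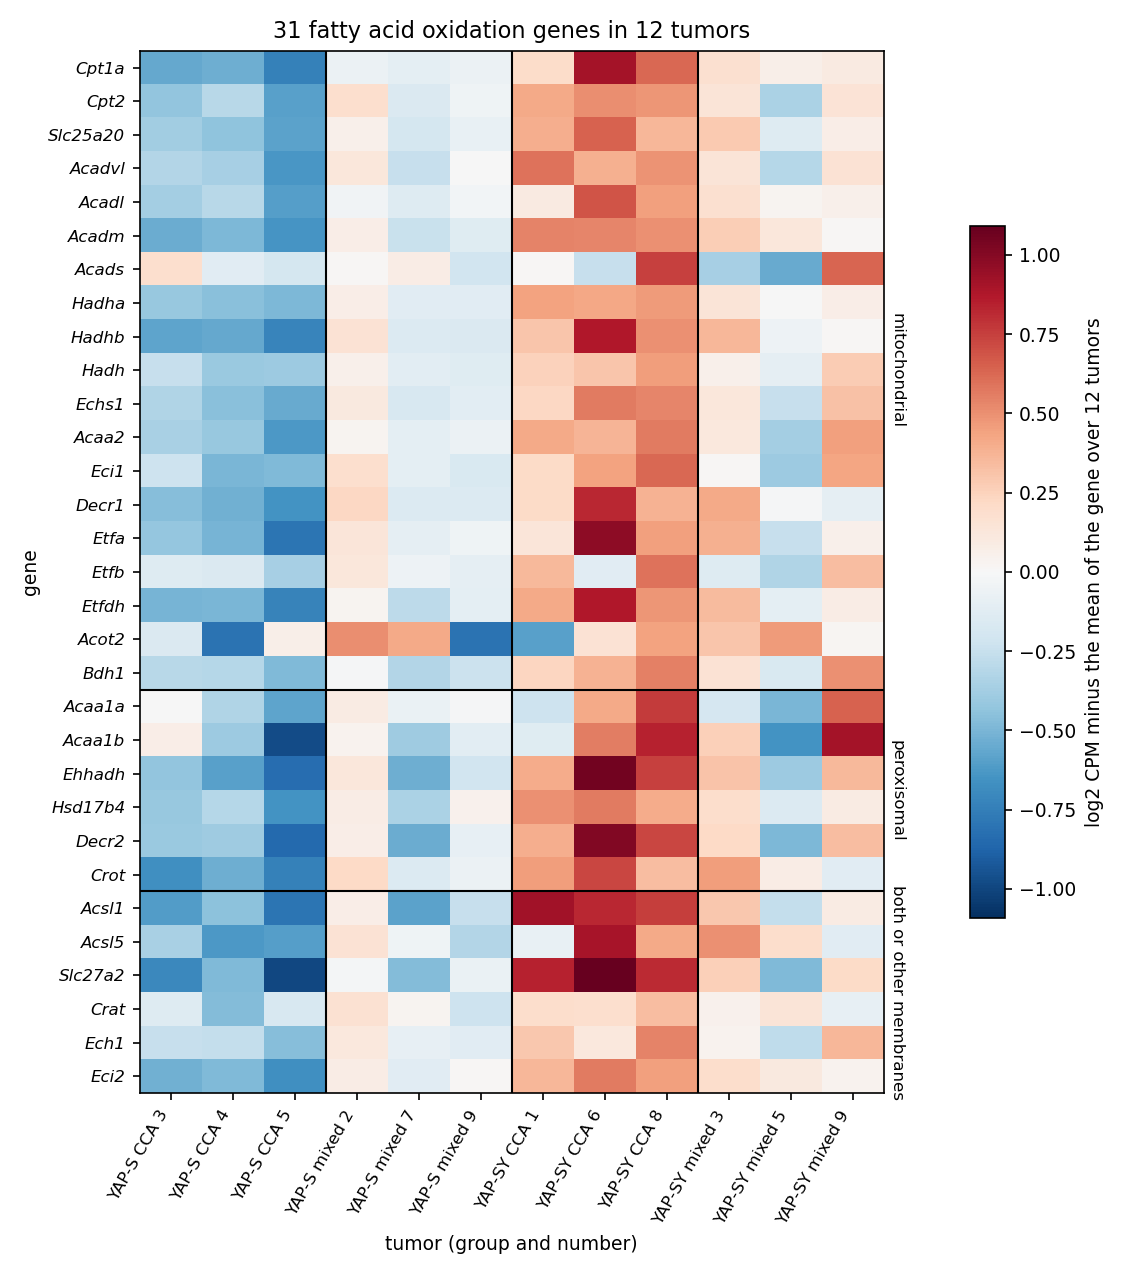
Level of each of the 31 genes in each of the 12 tumors, as log2 CPM minus the gene's mean over the 12 tumors (red above, blue below), with tumors in columns by group and genes in rows by location. Nearly all rows are blue in the 3 YAP-S CCA columns and red in the 3 YAP-SY CCA columns, with both mixed groups between, while Acads, Acot2, Acaa1a and Acaa1b are uneven within groups.

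The 2 largest differences were in genes that take up and activate fatty acids. Slc27a2 (ENSMUSG00000027359, chr2:126552407-126588243), which encodes a very long chain acyl-CoA synthetase and fatty acid transporter, had 485, 566 and 395 CPM among YAP-S CCA tumors against 1410.4, 1678 and 1388 CPM among their YAP-SY counterparts. The lowest YAP-SY tumor was well above the highest YAP-S tumor. Its log2 fold change was 1.63 (SE 0.22, edgeR adjusted p = 0.000265), a 3.10-fold difference. Acsl1 (ENSMUSG00000018796, chr8:46471041-46536051), the main long chain acyl-CoA synthetase of liver, measured 553, 621 and 485 CPM across the YAP-S CCA tumors, compared with 1593, 1496 and 1429 CPM across YAP-SY CCA. Its 2 groups were also far apart, with a log2 fold change of 1.45 (SE 0.20, edgeR adjusted p = 0.000264). Acsl5, a synthetase of mitochondrial and endoplasmic membranes, had 491, 406 and 414 CPM among YAP-S CCA tumors against 594, 1169 and 834 CPM among their YAP-SY counterparts, where tumor 6 held nearly 2 times the level of tumor 1. It rose by 0.99 on the log2 scale (SE 0.24).

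The carnitine shuttle rose as a whole. Cpt1a (ENSMUSG00000024900, chr19:3323301-3385732), which makes the acyl-carnitines and is the main control point of entry into mitochondria, measured 235, 238 and 207 CPM across the YAP-S CCA tumors, compared with 397, 648 and 533 CPM across YAP-SY CCA. The groups did not overlap, and tumor 6 was the highest of all 12. The log2 fold change was 1.21 (SE 0.16, edgeR adjusted p = 0.000261). Slc25a20, the carrier that exchanges acyl-carnitine for carnitine across the inner membrane, rose by 0.94 (SE 0.14), from 74.1 ± 5.26 to 142 ± 15.3 CPM (SD, n = 3 each). Cpt2, which rebuilds acyl-CoA inside, rose by 0.91 (SE 0.15), from 94.2 ± 9.36 to 177 ± 5.64 CPM (SD, n = 3 each). The carnitine acyltransferases outside this route were Crot, which serves peroxisomes and rose by 1.16 (SE 0.18), and Crat, which handles acetyl groups and had the smallest rise of all called members at 0.49 (SE 0.14). Without YAP-S CCA tumor 4, the lowest of its group, Crat no longer passed (log2 fold change 0.39).

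The acyl-CoA dehydrogenases, which take the first electrons and differ in the chain length they prefer, rose in 3 of 4 cases. Acadvl for very long chains rose by 0.92 (SE 0.16), Acadl for long chains by 0.85 (SE 0.15) and Acadm for medium chains by 1.08 (SE 0.13). Acadm had 229, 237 and 213 CPM among YAP-S CCA tumors against 484, 481 and 469 CPM among their YAP-SY counterparts. The 3 tumors of each group lay close together. Acads (ENSMUSG00000029545, chr5:115110299-115119346) for short chains measured 101, 81.9 and 78.2 CPM across the YAP-S CCA tumors, compared with 89.9, 74.9 and 149.6 CPM across YAP-SY CCA. Its groups overlapped, because YAP-SY tumor 6 lay below and tumor 8 above every YAP-S tumor, and the difference of 0.26 (SE 0.30, edgeR adjusted p = 0.514) did not pass. Whether Acads differs from Acadm was not tested.

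Hadha and Hadhb encode the alpha and beta subunits of the mitochondrial trifunctional protein, which carries out the later steps of the cycle on long chains. The genes point away from each other on chromosome 5, with only 85 bases between their annotated extents, so a single short stretch lies before both starts. It is shown because both genes rose; capitals mark GGGCGG, a GC box, found here 2 times. The stretch is chr5:30155163-30155247 (+ strand) of GRCm38.p6, RefSeq sequence, 5′ to 3′.
Hadha-Hadhb: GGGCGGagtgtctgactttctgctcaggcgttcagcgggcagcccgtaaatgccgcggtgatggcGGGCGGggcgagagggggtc
Hadha had 294, 286 and 278 CPM among YAP-S CCA tumors against 531, 523 and 538 CPM among their YAP-SY counterparts. Hadhb was at 94.4, 95.0 and 85.3 and at 173, 257 and 199 CPM in the same tumors. Neither gene's groups overlapped, but YAP-SY tumors 1, 6 and 8 were nearly equal for Hadha and spread for Hadhb. The log2 fold changes were 0.89 (SE 0.12, edgeR adjusted p = 0.000241) and 1.19 (SE 0.17, edgeR adjusted p = 0.000346). Of the 50-base stretches of Hadhb transcripts, 19.7% also occur in other genes, mostly the pseudogene Gm13910, so its reads may be counted elsewhere in part.

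The other enzymes of the mitochondrial cycle also rose. Echs1, the short chain hydratase, rose by 0.89 (SE 0.16), Hadh, the short chain dehydrogenase, by 0.69 (SE 0.13), and Acaa2, the thiolase that releases acetyl-CoA, by 0.91 (SE 0.19). Acaa2 measured 486, 467 and 403 CPM across the YAP-S CCA tumors, compared with 829.9, 803 and 924 CPM across YAP-SY CCA. Per kilobase of gene length it was the highest of all 31 members in both groups, at 299 and 563 CPM per kilobase. The enzymes that prepare unsaturated chains for the cycle rose as well: Eci1 by 0.83 (SE 0.19), Decr1 by 1.04 (SE 0.19), and Eci2, found in mitochondria and peroxisomes, by 1.02 (SE 0.12), which had the smallest adjusted p of all members in edgeR (0.000157). Ech1, a further isomerase of both organelles, rose by 0.65 (SE 0.17). On library size alone, Acadl, Hadh, Echs1, Acaa2, Eci1, Bdh1, Acsl5 and Ech1 were higher but did not pass.

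Electron transfer flavoprotein and its dehydrogenase hand the electrons on to the respiratory chain. Etfa, the alpha subunit, had 208, 196 and 160.2 CPM among YAP-S CCA tumors against 305, 547 and 379 CPM among their YAP-SY counterparts. All YAP-SY tumors were above all YAP-S tumors, and the log2 fold change was 1.13 (SE 0.22, edgeR adjusted p = 0.00188). Etfdh, the dehydrogenase, rose by 1.18 (SE 0.17). Etfb (ENSMUSG00000004610, chr7:43444108-43457800), the beta subunit, measured 146, 145 and 125 CPM across the YAP-S CCA tumors, compared with 206, 148 and 243 CPM across YAP-SY CCA. Its YAP-SY tumor 6 was barely above the highest YAP-S tumor, whereas for Etfa the same tumor was the highest. The Etfb difference of 0.52 (SE 0.20, edgeR adjusted p = 0.0564) did not pass. Of its 50-base stretches, 44.8% also occur in other genes, mostly Gm45233, which overlaps it, so its count is uncertain.

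Among peroxisomal members, Ehhadh (ENSMUSG00000022853, chr16:21761287-21787844), the bifunctional enzyme of the inducible peroxisomal cycle, had 187, 167 and 141 CPM among YAP-S CCA tumors against 333, 522 and 420.2 CPM among their YAP-SY counterparts. The groups did not overlap, and the log2 fold change was 1.37 (SE 0.24, edgeR adjusted p = 0.0011). Decr2, a reductase for unsaturated chains, rose by 1.26 (SE 0.24), and Hsd17b4, the bifunctional enzyme for branched chains and bile acid precursors, by 0.94 (SE 0.16). The peroxisomal thiolases did not pass. Acaa1a measured 104, 83.1 and 70.0 CPM across the YAP-S CCA tumors, compared with 88.8, 139 and 176 CPM across YAP-SY CCA, a difference of 0.65 (SE 0.29, edgeR adjusted p = 0.0906). Acaa1b was at 468, 337 and 226 and at 405, 655 and 796 CPM, a difference of 0.85 (SE 0.37, edgeR adjusted p = 0.0844). For both, YAP-SY tumor 1 lay inside the YAP-S range. The copies share sequence: 12.9% of the 50-base stretches of Acaa1a and 30.5% of those of Acaa1b occur in another gene, so their reads may be split between them.

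The remaining mitochondrial members were Bdh1 and Acot2. Bdh1, which interconverts the ketone bodies acetoacetate and beta-hydroxybutyrate, had 127, 126 and 112 CPM among YAP-S CCA tumors against 185, 204 and 229.9 CPM among their YAP-SY counterparts. It rose by 0.76 (SE 0.17, edgeR adjusted p = 0.00404), without overlap. Acot2, a thioesterase that frees fatty acids from coenzyme A, was the least abundant member at 9.11, 5.80 and 10.6 and 6.75, 11.3 and 13.7 CPM. Its groups overlapped widely, its difference was 0.32 (SE 0.35, edgeR adjusted p = 0.492), and 27.7% of its 50-base stretches are shared, mainly with Acot1.

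**Figure D2:**
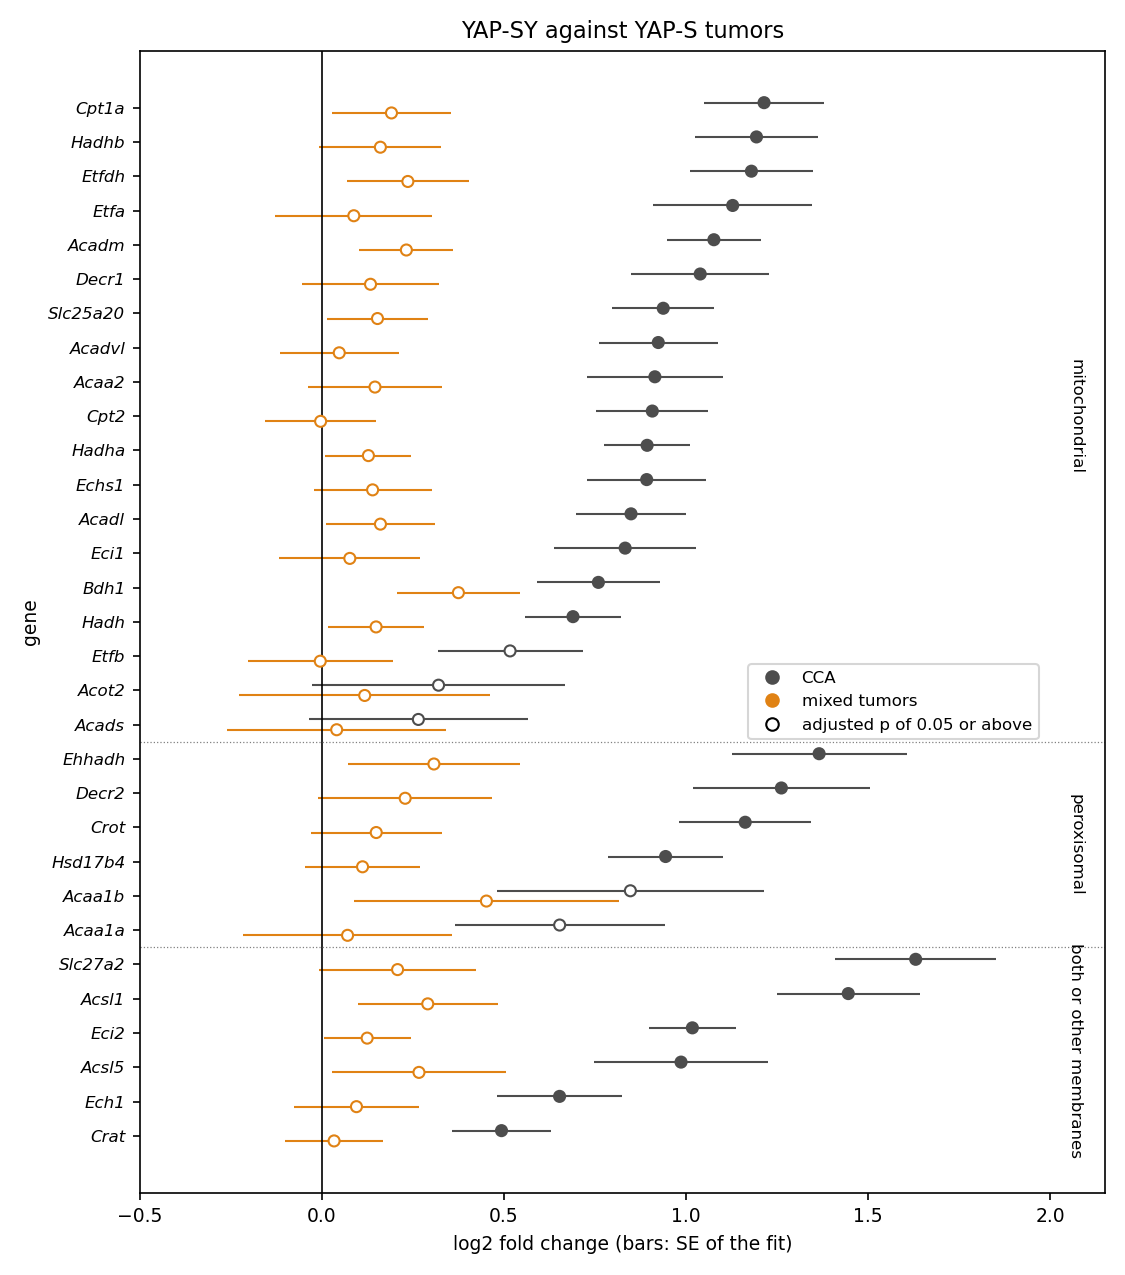
Log2 fold change of YAP-SY against YAP-S for each of the 31 genes in CCA (grey) and in mixed tumors (orange), with bars for the SE of the fit and filled points for an adjusted p under 0.05. The CCA points lie between 0.26 and 1.63, with 26 filled, and the mixed points between -0.00 and 0.45, with none filled.

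The 5 members that did not pass in CCA had transcripts of higher GC content than most of the others. The longest transcripts of Acads, Etfb, Acot2, Acaa1a and Acaa1b had GC contents of 59.7%, 57.1%, 53.7%, 55.3% and 58.9%, and the 26 members that rose ranged from 39.1% to 54.4% with a median of 48.7%. Across the 31 genes, which share all libraries and are not independent replicates, the CCA log2 fold change correlated with GC content by r = -0.63, and across 18148 tested genes with a transcript by r = -0.25. Deviations of the 31 genes from their group mean correlated with GC content to differing degrees: by -0.01, -0.68 and 0.80 in YAP-SY CCA tumors 1, 6 and 8, and by -0.76, -0.38 and 0.69 in YAP-SY mixed tumors 3, 5 and 9. In the YAP-S tumors these correlations lay between -0.30 and 0.52. As an alternative chosen after seeing the data, each library was given an offset that followed its GC trend over all genes (lowess, span 0.3). Then 30 of 31 members rose in CCA, all but Acot2, among 4081 genes that rose in that fit. Acads was at 0.87 (edgeR adjusted p = 0.00198), Etfb at 0.98 (0.000237), Acaa1a at 1.0 (0.00853) and Acaa1b at 1.48 (0.00574), and the members' correlation with GC content was 0.15. The offset also removes any GC trend that belongs to the groups, and the part of GC content in the differences was not tested.

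**Figure D3:**
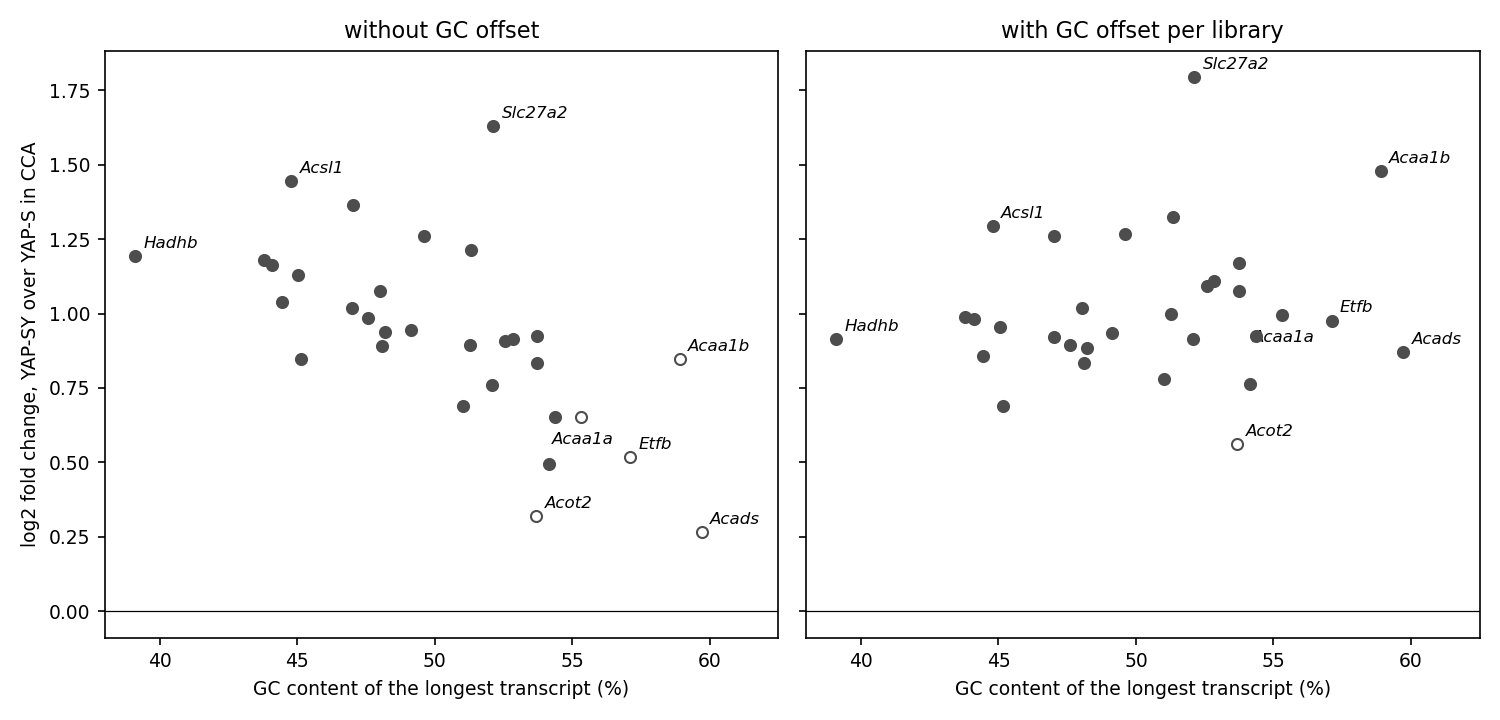
Log2 fold change of YAP-SY over YAP-S in CCA against the GC content of each gene's longest transcript in percent, without (left) and with (right) a GC offset per library; each point is 1 of 31 genes, filled where the adjusted p is under 0.05. On the left the 5 open points lie at GC contents from 53.7% to 59.7%, and on the right only Acot2 is open.

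RefSeq promoter windows, 250 bases before to 50 bases after a start, were found for 27 of the 31 members (29 windows), but not for Acaa2, Crat, Decr1 or Hsd17b4. Motifs were searched on both strands. AGGTCA, the half-site bound by PPAR alpha and related receptors, was in 17.2% of member windows, those of Acadm, Acadvl, Cpt1a, Echs1 and Slc27a2, against 16.3% of all 32851 windows and 13.5% of those of tested genes. The direct repeat AGGTCANAGGTCA was in none of the member windows and in 0.04% of all. TCAAGGTCA, an ERR site that contains AGGTCA, was likewise in none and in 0.423% of all. GGGCGG was in 72.4% of member windows, against 35.7% of all and 57.2% of those of tested genes. CCAAT was in 44.8% of member windows, against 37.4% of all and 37.1% of those of tested genes. GCGCANGCGC, a site of NRF1, was in 6.9% of member windows, against 4.6% of all and 8.47% of those of tested genes. As examples, the stretches before the start of 2 members that rose, Acsl1 and Ehhadh, and of 2 that did not pass, Acaa1b and Etfb, are shown, 5′ to 3′ on the gene's strand (GRCm38.p6, RefSeq), with these motifs in capitals in either orientation. They are Acsl1 at chr8:46470787-46471036 (+ strand), Ehhadh at chr16:21787845-21788084 (- strand), Acaa1b at chr9:119157094-119157343 (- strand) and Etfb at chr7:43443822-43444071 (+ strand).
Acsl1: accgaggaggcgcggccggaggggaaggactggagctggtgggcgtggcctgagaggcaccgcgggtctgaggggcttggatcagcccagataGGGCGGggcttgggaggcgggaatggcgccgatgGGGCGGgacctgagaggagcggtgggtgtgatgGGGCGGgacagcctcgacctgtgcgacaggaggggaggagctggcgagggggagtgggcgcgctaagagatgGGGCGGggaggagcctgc
Ehhadh: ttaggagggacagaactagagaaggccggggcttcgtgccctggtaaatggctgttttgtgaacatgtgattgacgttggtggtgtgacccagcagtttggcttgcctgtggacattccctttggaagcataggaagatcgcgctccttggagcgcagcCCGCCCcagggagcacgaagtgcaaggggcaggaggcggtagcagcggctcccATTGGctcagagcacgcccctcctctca
Acaa1b: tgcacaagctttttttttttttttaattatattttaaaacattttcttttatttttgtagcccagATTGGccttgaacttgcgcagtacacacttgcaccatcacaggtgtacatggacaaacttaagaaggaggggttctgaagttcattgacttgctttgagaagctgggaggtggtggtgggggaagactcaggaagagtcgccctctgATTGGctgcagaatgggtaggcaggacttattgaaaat
Etfb: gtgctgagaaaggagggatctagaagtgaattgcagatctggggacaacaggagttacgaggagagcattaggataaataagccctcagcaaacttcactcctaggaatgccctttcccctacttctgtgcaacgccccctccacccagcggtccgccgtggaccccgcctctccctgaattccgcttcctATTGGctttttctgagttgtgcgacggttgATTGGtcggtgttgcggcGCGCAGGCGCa
Acsl1 had 4 GGGCGG matches, Ehhadh 1 with 1 CCAAT, Acaa1b 2 CCAAT matches, and Etfb 2 CCAAT matches with 1 NRF1 match at its end. AGGTCA was in none of these 4 examples, but it was in the window of Slc27a2, the member with the largest rise. Among other members that rose, Etfa had 2 CCAAT and 0 GGGCGG matches in the stretch before its start, as Acaa1b did. Crot, Acadm and Bdh1, which also rose, had 0 GGGCGG matches there, although the Crot stretch held only 72 bases. Among the 4 examples GGGCGG was thus only in the 2 that rose, but some other members that rose lacked it. Whether motifs differ between members that rose and members that did not pass was not tested. A match is a run of letters and not a measured site.

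Other genes of the pathway moved in the same comparison. Of 8 further ketone body genes tested, 6 rose and 1 fell. Acat1, which joins acetyl-CoA into acetoacetyl-CoA, rose by 1.07 (SE 0.16), and Slc16a7, a carrier of ketone bodies and other monocarboxylates, by 1.32 (SE 0.19). Oxct1 (ENSMUSG00000022186, chr15:4026383-4155344), which lets tissues burn ketone bodies and is low in hepatocytes, had 63.0, 59.6 and 73.5 CPM among YAP-S CCA tumors against 22.0, 16.2 and 22.7 CPM among their YAP-SY counterparts. Oxct1 thus went the opposite way, with a log2 fold change of -1.69 (SE 0.31, edgeR adjusted p = 0.00132).

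Of 14 uptake and activation genes, 7 rose, 2 fell and 5 did not pass: Fabp1, the liver fatty acid binding protein, rose by 1.67 (SE 0.30) and Acsm5, a medium chain synthetase, by 1.75 (SE 0.24), while Slc27a1, a transporter best known from muscle and fat, was at -1.80 (SE 0.32) and Acsbg1 at -2.75 (SE 0.80) at under 3 CPM in each tumor. Of 15 other mitochondrial genes, 10 rose, among them Acad11 (1.27) and Acad8 (0.99), and 1 fell, the brain isoform Cpt1c (-3.06, SE 0.51). Of 19 other peroxisomal genes, 14 rose and none fell, including the transporter Abcd2 (2.33) and Acot12 (1.64). Of 14 regulators, 8 rose, 1 fell and 5 did not pass. Ppara measured 58.1, 58.1 and 35.8 CPM across the YAP-S CCA tumors, compared with 73.9, 202 and 141 CPM across YAP-SY CCA and rose by 1.45 (SE 0.35). Its coactivator Ppargc1a rose by 0.89 (SE 0.20), Acaca, which makes malonyl-CoA, by 1.01 (SE 0.18), and Ppard fell, with -1.39 (SE 0.27). On library size alone Ppargc1a and Acaca were above 0 but did not pass, and Acacb lay at -0.16. The PPAR alpha target Fgf21 (1.21, SE 0.71) and Acacb (0.39, SE 0.28) did not pass.

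Markers of cell types differed between the same groups. In CCA, 8 of 11 hepatocyte markers rose (median log2 fold change 1.09; Alb 1.51, Hnf4a 1.09), 8 of 10 cholangiocyte markers fell (median -1.94; Sox9 -2.00), 8 of 9 fibroblast markers fell (Col1a1 -3.45) and 6 of 10 leukocyte markers fell (Ptprc -1.18). Fibroblast markers summed to 1883 to 2372 CPM in YAP-S CCA and 438 to 613 CPM in YAP-SY CCA, and leukocyte markers to 754 to 2008 and 280 to 527 CPM. Of 6 endothelial markers, 1 rose and 2 fell, with log2 fold changes from -1.62 to 0.78, and they summed to 248 to 329 and 276 to 380 CPM. Of 6 fat markers, Lep was at 0 counts in all 12 tumors, and Ucp1, Adipoq and Plin1 had no more than 4 counts in any. Cidea reached 681 counts and Cfd 64, and only these 2 were tested. In CCA 1 of them fell (-2.24) and the other was at 0.06. The 2 summed to 1.30 to 7.18 CPM in YAP-S CCA and 0.56 to 1.90 CPM in YAP-SY CCA. The part of the cell mixture in the members' differences was not tested. As a description, the mean log2 CPM of the 31 members was set beside that of the 11 hepatocyte markers in each tumor. The members' score was 7.29 ± 0.12 in YAP-S CCA, 7.68 ± 0.15 in YAP-S mixed, 7.82 ± 0.21 in YAP-SY mixed and 8.21 ± 0.16 in YAP-SY CCA (SD, n = 3 each). After subtraction of the hepatocyte score it was -4.06 ± 0.29, -4.21 ± 0.23, -3.94 ± 0.21 and -4.20 ± 0.17 (SD, n = 3 each). The 2 CCA groups, 0.93 apart in the members' score, were then -0.13 apart, with overlapping values.

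**Figure D4:**
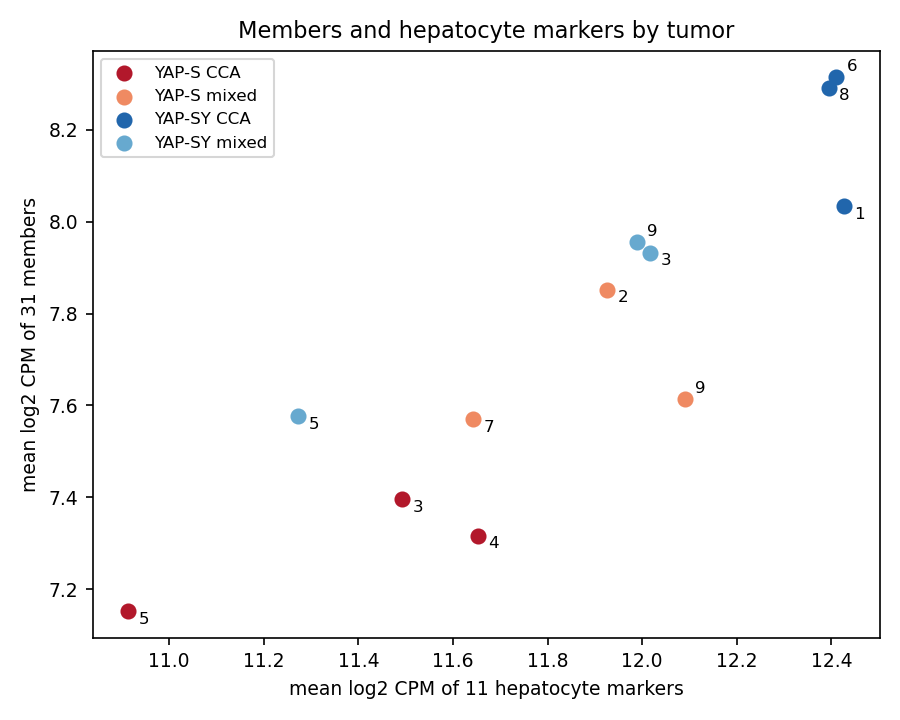
Mean log2 CPM of the 31 members (vertical) against mean log2 CPM of 11 hepatocyte markers (horizontal) in each of the 12 tumors, colored by group and labelled by tumor number. YAP-S CCA tumors lie lowest on the vertical axis at 7.15 to 7.40 and YAP-SY CCA tumors highest on both axes at 8.03 to 8.31, with the mixed tumors between.

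In mixed tumors no member passed between YAP-SY and YAP-S, and no gene of the 18318 was called (0%). The edgeR test gave 551 genes and 1 member, Bdh1, an unadjusted p under 0.05. DESeq2 called 12 genes and no member, and limma-voom called none. The members' median log2 fold change was 0.15, against 0.02 for all genes, with 29 of 31 above 0. Cpt1a measured 331, 321 and 329.6 CPM across YAP-S mixed tumors, compared with 389, 361 and 369.5 CPM across YAP-SY mixed tumors. Those groups were close and did not overlap, as was the case for Cpt1a and Acadl only, 2 of 31 members (4.3% of all genes). Slc27a2 was at 778, 566 and 751 and at 945, 564 and 911 CPM. Here the groups overlapped, and YAP-SY mixed tumor 5 was the lowest of the 6.

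The effect of YAP-SY on the members differed between CCA and mixed tumors. The difference of effects passed for 17 of 31 members, all larger in CCA, against 5.02% of all genes in that direction. Its median over the members was 0.78 on the log2 scale, against 0.01 for all genes, and all 31 were above 0. Over all genes 920 differences were higher and 1868 lower, against 150 and 4180 on library size alone and 1759 and 1973 with the GC offset. Among those that passed, the largest was Slc27a2 at 1.42 (SE 0.31, edgeR adjusted p = 0.0123), followed by Acsl1 at 1.16 (SE 0.27), Etfa at 1.04 (SE 0.31), Hadhb at 1.03 (SE 0.24) and Cpt1a at 1.02 (SE 0.23). Ehhadh and Decr2, at 1.06 and 1.03, had adjusted p of 0.0505 and 0.0562 in edgeR and did not pass. Outside the members, the effect on Oxct1 differed by -1.75 (edgeR adjusted p = 0.019). Of the uptake and activation genes 1 was called higher and 1 lower, and of the other mitochondrial genes 3 higher and 1 lower. Among the members, only Cpt1a, Acadm, Hadha, Slc27a2 and Eci2 passed whichever tumor was left out. The count fell to 11, 6, 5 and 9 without YAP-S CCA tumors 3 and 5 and YAP-S mixed tumors 2 and 9, and on library size alone it was 2, Acsl1 and Slc27a2. The pattern was not particular to the members. Of 11 hepatocyte markers, 7 passed for the difference of effects, all higher, with a median of 1.21. Of 10 cholangiocyte markers, 4 passed, all lower, with a median of -1.97.

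The same difference can be read as CCA against mixed tumors within each model, where the members lay on opposite sides of 0. Within YAP-S, 30 of 31 members were lower in CCA, with a median of -0.40 against -0.02 for all genes. All 11 hepatocyte markers were lower too, with a median of -0.55. No member passed, nor did any gene (0% lower), although in edgeR 3636 genes and 18 members had an unadjusted p under 0.05. DESeq2 called 6 members lower, among 418 genes lower and 1029 higher. Limma-voom called 1 member lower, among 140 genes lower and 618 higher, and with sample quality weights 18 members lower, among 1622 genes lower and 1987 higher. When only these 6 tumors were fitted, edgeR called 11 members lower, among 791 genes lower and 1602 higher. The 3 CCA tumors lay below the 3 mixed tumors for 21 members (17.6% of all genes). Crot measured 1075, 837 and 885 CPM across the mixed tumors, compared with 582, 639 and 557 CPM across CCA, the largest such difference (-0.65, SE 0.18, edgeR adjusted p = 0.0819). The CCA tumors were all lower.

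Within YAP-SY, 30 of 31 members were higher in CCA than in mixed tumors, with a median of 0.37 against -0.01 for all genes. All 11 hepatocyte markers were higher too, with a median of 0.60, and none passed. Among the members only Slc27a2 passed, at 0.89 (SE 0.22, edgeR adjusted p = 0.0492), among 0.207% of genes that rose. Over all genes 38 rose and 494 fell, against 146 and 633 with the GC offset. Slc27a2 passed in 1 of 12 fits that left out a tumor. Groups did not overlap for 14 members, higher in CCA (7.99% of all genes). Acsl1 was at 1036, 705 and 899 CPM in mixed tumors, all below the 3 CCA tumors given above, with a difference of 0.77 (SE 0.19, edgeR adjusted p = 0.0522). Over the 4 groups, YAP-S CCA had the lowest mean for 30 of 31 members and YAP-SY CCA the highest for 30, while the order of the mixed groups was not separated by the test. Outside the members, 3 uptake and activation genes lay below 0 within YAP-SY and 11 above, and of the other mitochondrial genes 3 and 12. Of all further pathway genes only Oxct1 passed, lower in CCA with a log2 difference of -1.42 (SE 0.30, edgeR adjusted p = 0.0325). YAP-SY mixed tumor 5 stood out for it, with 40.9, 90.8 and 31.8 CPM in mixed tumors 3, 5 and 9.

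In SB1 cells the pathway was present in part. These levels are CPM on library size, set beside YAP-S CCA tumors scaled the same way, and since the tables were made separately no test was run. SB1 libraries lay below all YAP-S CCA tumors for 28 of 31 members, and the ranges overlapped for Acadl, Crat and Acot2. The median ratio of tumor to SB1 level was 3.43. The same count was not made over all genes, so whether the members stand out in it was not tested. Acsl5 was the highest member in SB1 at 366, 374 and 330.1 CPM, against 576, 465 and 536 CPM in the tumors. Cpt1a was at 194, 144 and 197 CPM against 275, 273 and 268, and Acadl at 170.4, 151 and 156 CPM against 147, 152 and 139. Acadl thus overlapped the tumors, while Acsl5 and Cpt1a lay below all of them.

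Mean levels in the tumors were over 10 times those in SB1 cells for 6 members: Slc27a2, Bdh1, Acaa1b, Ehhadh, Acsl1 and Acaa2. Of these, Slc27a2 of liver uptake, the ketone body gene Bdh1 and the peroxisomal thiolase gene Acaa1b were nearly missing from SB1 cells. Slc27a2 had 2, 1 and 1 counts in the 3 libraries, against 568, 647 and 512 CPM in the tumors. Bdh1 had 5, 9 and 0 counts, where a count of 0 allows up to 3, against 149, 145 and 145 CPM. Acaa1b was at 0.589, 1.85 and 0.685 CPM against 549, 386 and 292. In the tumors all 3 were clearly detected in every library. Ehhadh was at 2.52, 3.04 and 4.83 CPM against 219, 191 and 182, and Acsl1 at 16.8, 14.0 and 14.5 CPM against 648, 710.2 and 628. Acaa2, the most abundant member per kilobase in the tumors, was at 48.5, 50.9 and 52.8 CPM against 570.0, 535 and 522. Its SB1 level was near the members' SB1 median of 49.4 CPM. Outside the members, Oxct1 was higher in SB1 at 194, 180.1 and 194 CPM against 73.8, 68.2 and 95.2. Alb was at 1113, 612 and 613 CPM in SB1. Among the other hepatocyte markers, counts over the 3 libraries ran from 6554 for Fgb and 4515 for Hnf4a down to 5 for Pck1. Tat, Fga and Cps1 had 36, 26 and 19 counts. Sox9 was at 40.5, 33.1 and 43.0 CPM. Of other cholangiocyte markers, Krt19 had 116022 counts over the 3 libraries and Epcam 19.

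**Figure D5:**
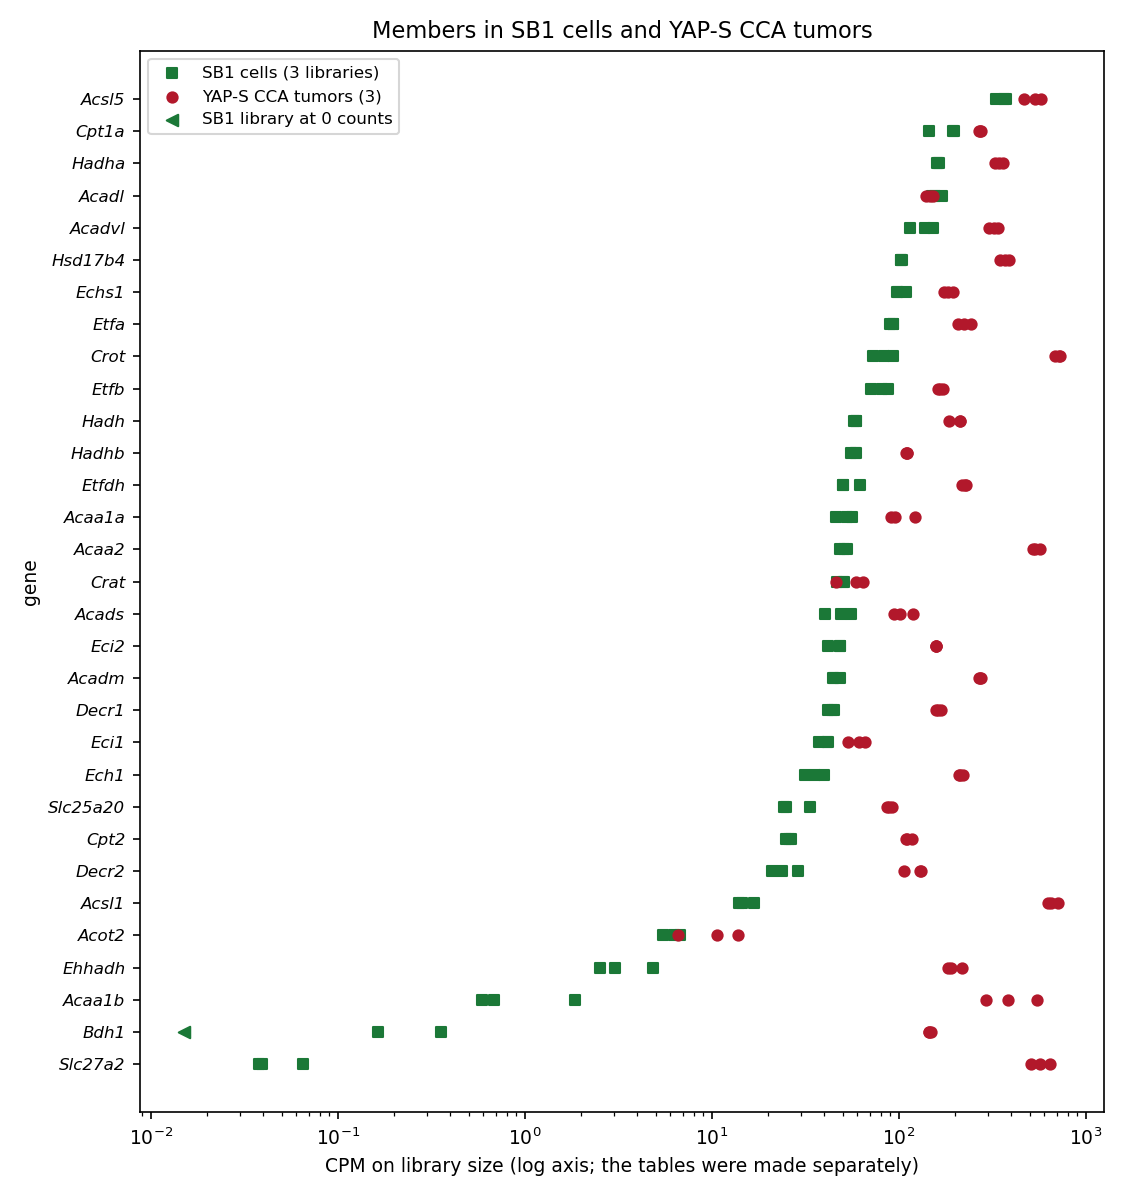
Level of each of the 31 genes in 3 SB1 libraries (green squares; a triangle marks a library at 0 counts) and 3 YAP-S CCA tumors (red circles), as CPM on library size on a log axis, ordered by the SB1 mean. The 2 sets of points lie close for Acsl5, Acadl, Crat and Acot2 and farthest apart for Slc27a2, Bdh1 and Acaa1b.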

How the data were processed

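RNA was measured in 18 samples: 12 tumors and 3 samples each of SB1 and SY1 cells. Per the labels' protocols, libraries came from total RNA of nodules or cells with a poly(A) kit; per the submitters' processing notes, STAR and mm10 were used, and versions and the counting tool are not given in the sources used here. Tumor values were deposited as counts per gene that the authors had corrected in a way not given here; SB1 values were deposited as raw counts in another table. The authors' tables also give other values (gene length and position), used for CPM per kilobase. That table's 3 columns that match no sample were not used.

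Groups follow the genotype labels. In R 4.3.3, edgeR 4.0.16 (filterByExpr, TMM, glmQLFit, glmQLFTest, 1 term per group, 12 tumors, Benjamini-Hochberg, threshold 0.05) was run on all genes after a test on simulated data. With changes set in YAP-SY CCA, that test recovered 2 of 67 at 1.5-fold, 24 of 67 at 2-fold and 38 of 66 at 3-fold. Of its 64 calls, 0 were false. Differences that did not pass may thus have been missed, also at 2-fold and 3-fold. The simulated data held far fewer changed genes than were called in CCA, so these shares need not hold for the tumors. The SE is the absolute log2 fold change over the square root of F. Scores are mean log2 CPM with a prior count of 1. Alternatives used DESeq2 1.42.0, limma 3.58.1 and other scalings. Named genes are all 31 members, 9 further pathway genes, and the 2 genes with the smallest p per direction of each other list in CCA; a few of these are not reported here. Members and lists were chosen with earlier results of these data known. Intervals from depth would cover counting error only and are not given. GC content and shared 50-base stretches came from GENCODE vM21 transcripts.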

Additional observations from a re-analysis of the deposited data

Results flagged for a closer look

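For 17 members the effect of YAP-SY against YAP-S differed between CCA and mixed tumors by a test of the difference itself (edgeR, adjusted p under 0.05 over all genes), each time larger in CCA. On the log2 scale the differences among uptake, activation and carnitine genes were 1.42 for Slc27a2, 1.16 for Acsl1, 1.02 for Cpt1a, 1.01 for Crot, 0.91 for Cpt2 and 0.78 for Slc25a20. Among the dehydrogenases they were 0.88 for Acadvl, 0.84 for Acadm and 0.69 for Acadl. The trifunctional protein genes gave 1.03 for Hadhb and 0.77 for Hadha, and Echs1 gave 0.75. Enzymes of unsaturated chains gave 0.91 for Decr1 and 0.89 for Eci2. The electron transfer genes gave 1.04 for Etfa and 0.94 for Etfdh, and peroxisomal Hsd17b4 gave 0.83. Acadl and Echs1 had the weakest calls, lost in 11 and 10 of the 12 fits that left out a tumor. Hepatocyte markers differed in the same direction, with 7 of 11 passing and a median of 1.21.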

How the results depend on the processing

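In CCA, 25 to 28 members passed when each tumor was left out and 26 to 30 under settings other than library size alone, where 17 passed and Crat was at -0.08 (-0.077). For the difference of effects, the count of 17 ran from 5 to 20 when a tumor was left out and was 2 on library size alone. Under the other settings it was 17 to 25, highest with the GC offset. Within YAP-S, the count of 0 became 1 with upper quartile factors, 6 with the DESeq2 Wald test, 18 with limma-voom and sample quality weights, 1 with limma-voom without them, 1 with the GC offset and 11 with the compared groups alone; it was 0 to 1 when a tumor was left out. Within YAP-SY, the count of 1 became 2 with DESeq2 size factors, 2 with no filter, 8 with DESeq2, 2 with the GC offset, and 0 with limma-voom with or without weights and with the compared groups alone; it was 0 to 2 when a tumor was left out. In mixed tumors it was 0 in every setting run. The causes of these changes were not tested. The GC offset and limma-voom without weights were chosen after seeing the data. Prior counts left the score difference at -0.13, and TMM left the SB1 median at 49.4 CPM.

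Tumor numbers 3, 5 and 9 occur in both models, with no statement of what they mark. Deviations correlated by 0.09 to 0.35 in 3 same-number pairs and by -0.47 to 0.29 in 51 others, and 3 of 6 tumors correlated best with their own number. With the number as a replicate block (limma-voom, correlation 0.22), 26 members rose in CCA, among 3303 genes higher and 3823 lower. For the difference, 18 members passed, among 1031 genes higher and 1955 lower. Within YAP-S, 3 members were lower, among 224 genes lower and 767 higher. No member passed within YAP-SY, where 46 genes did, or in mixed tumors, where 0 genes did.

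Over all genes, counts of calls moved by more than 1.5 times within YAP-S, from 0 to between 117 and 3609 under the other scalings, filters and tools and to 0 to 670 when a tumor was left out, and within YAP-SY, from 532 to 2006 on library size alone, 859 with no filter, 1732 with DESeq2, 16, 46 and 42 with limma-voom (weights, block, neither) and 0 with the compared groups alone, and 0 to 595 when a tumor was left out. For the difference, 2788 became 4330 on library size alone and 1058 to 3077 when a tumor was left out, and in mixed tumors 0 became 12 with DESeq2. In CCA on library size alone, 760 genes rose and 8064 fell, against 3358 and 3813 with TMM.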
